A study of Mus musculus with 6 samples.

Results

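The basigin family of cell-surface glycoproteins has 3 members in the mouse, basigin (Bsg), embigin (Emb) and neuroplastin (Nptn), and the rows with these 3 gene symbols were taken from the 14824 genes listed in bulk RNA-seq of the primary somatosensory (S1) cortex. Whisker-stimulated (WS) and non-stimulated (NS) cortex was compared in C57B6 wild-type (WT) mice at postnatal day 21, with 3 libraries in each group and no transgene or deletion in either. In WS mice the whiskers were brushed daily through the third postnatal week and tissue was taken 90 minutes after the last stimulation, and the NS samples received no treatment per the labels. In the imaging of the same study the unstimulated side of the brain served as NS, but which NS and WS libraries came from 1 animal was not stated, so p-values measure the spread between these libraries.

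All 3 members are single-pass membrane proteins of the immunoglobulin superfamily that travel to the plasma membrane with a partner that crosses the membrane many times. Basigin carries the lactate and pyruvate transporters MCT1, MCT3 and MCT4 (encoded by Slc16a1, Slc16a8 and Slc16a3), embigin is the usual partner of MCT2 (Slc16a7), and neuroplastin is a subunit of the plasma membrane calcium pumps (Atp2b1 to Atp2b4) and of synaptic receptor complexes. In brain, basigin and MCT1 are known from the endothelium of the blood-brain barrier and from glia, MCT2 from neurons, and neuroplastin from neuronal membranes.

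A part of the sequence that the members share is the membrane-spanning segment. It holds 1 acidic residue, a glutamate, within a mostly hydrophobic run that in Emb also holds a lysine. The coding bases of the segment are shown for the 3 genes, whose transcripts behaved differently below, with the stretches placed around the glutamate codon. They were read from GENCODE M21 transcripts on GRCm38, each on the plus strand and within a single exon, over 24 codons, with the glutamate codon in capitals. The Bsg stretch lies at chr10:79710815-79710886 and codes for residues 210 to 233 of 273, the Emb stretch lies at chr13:117267494-117267565 (residues 261 to 284 of 330), and the Nptn stretch lies at chr9:58643697-58643768 (residues 220 to 243 of 281).
Bsg: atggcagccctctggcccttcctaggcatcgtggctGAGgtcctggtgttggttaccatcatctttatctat
Emb: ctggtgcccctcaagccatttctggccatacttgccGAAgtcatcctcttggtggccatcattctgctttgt
Nptn: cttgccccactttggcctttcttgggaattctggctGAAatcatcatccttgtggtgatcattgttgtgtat
In this window 35 of 72 bases and 11 of 24 residues were identical in all 3 members. Over the whole proteins, Bsg and Nptn were the closest pair, with 42.2% identity over 263 aligned residues, against 28.5% for Bsg and Emb over 260 and 29.1% for Emb and Nptn over 275. Bsg and Emb, the members called higher below, were therefore not the closest pair in sequence.

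Total counts over the listed genes lay between 15856054 and 16064953 in NS and between 15660395 and 17276168 in WS, and no library stood apart in depth. Counts were scaled to CPM (counts relative to the TMM-normalized library size), with levels given below as the mean ± SD over the n = 3 libraries of a group and log2 fold changes with their SE. Of 13747 genes that passed a filter on low counts, edgeR called 5 higher in WS at an adjusted p under 0.05 (0.0364%) and 0 lower (0%), and before adjustment 119 higher and 45 lower genes had p under 0.05. When the replicate number entered as a block, 11 genes were called. DESeq2 called 8 higher and 0 lower. The 5 genes were Bsg, Emb, Slc16a1, Slc16a7 and Vegfa, the last a vascular growth factor named here after its values were seen. All 3 members passed the filter, and 2 of them were called higher.

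Bsg, the member known best as a transporter chaperone, was higher in WS. Its counts were 7371, 7214 and 7967 in NS replicates 1, 2 and 3, and 14145, 16130 and 12021 in WS replicates 1, 2 and 3. Scaled to library size these were 465, 450 and 495 CPM in NS and 838, 998 and 759 CPM in WS. The lowest WS library stood 1.53-fold above the highest NS library, so the groups did not overlap, as was the case for 3.11% of all tested genes in this direction. The means were 470 ± 22.8 CPM against 865 ± 122 CPM in WS, which is a log2 fold change of 0.88 ± 0.10 (SE) or 1.84-fold with a 95% confidence interval of 1.58 to 2.14 (edgeR quasi-likelihood test, adjusted p = 0.0088). It ranked 3 by p-value and 20 by log2 fold change among the tested genes. The adjusted p rose to 0.0703, 0.211 and 0.0824 without NS replicate 1, 2 or 3, while the log2 fold change stayed between 0.76 and 0.97 over all libraries left out in turn. In bulk tissue, more cells of a type and more RNA per cell cannot be told apart.

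Emb, the partner of MCT2, was also higher in WS, from a much lower level. It had 469, 419 and 498 counts in NS and 1188, 746 and 926 counts in WS. In CPM these were 29.6, 26.2 and 30.9 in NS and 70.4, 46.1 and 58.5 in WS, with the lowest WS value 1.49-fold above the highest NS value. Again no WS library reached down into the NS range. Mean levels were 28.9 ± 2.46 CPM in NS against 58.3 ± 12.1 CPM in WS, which is a log2 fold change of 1.01 ± 0.14 (SE) with a 95% confidence interval of 0.71 to 1.32, or 2.02-fold (edgeR, adjusted p = 0.0355), which ranked 5 by p-value. Without NS replicate 1, 2 or 3 the adjusted p was 0.187, 0.507 and 0.205, and the log2 fold change lay between 0.86 and 1.15 over all libraries left out in turn. With the study's limit of a log2 fold change above 1 added to the edgeR fit, 4 genes were called (0.0291% of those tested). Emb met that limit by a small margin, and Bsg did not meet it. The study applied the same limit to DESeq2 and PossionDis calls and reported many more genes. It described Bsg and Emb as significantly increased, with follow-up by RT-qPCR and Western blot. When replicates were blocked, the log2 fold change of Emb was 0.999 (edgeR, adjusted p = 2.19e-06), just under that limit.

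Nptn, the neuronal member, was not called. Its counts were 12415, 12043 and 12515 in NS and 11633, 11998 and 11300 in WS, which gave 783, 752 and 777 CPM in NS and 689, 742 and 714 CPM in WS. Each WS library was lower than each NS library, although the highest WS value was 0.987 of the lowest NS value, and 3.16% of all tested genes showed such a separation downwards. The means were 771 ± 16.6 and 715 ± 26.5 CPM, for a log2 fold change of -0.11 ± 0.07 (SE) with a 95% confidence interval of -0.27 to 0.05 (edgeR, adjusted p = 1.0). On the linear scale this interval ran from 0.831-fold to 1.04-fold, so a rise of the size seen for Bsg or Emb lay outside it.

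**Figure D1:**
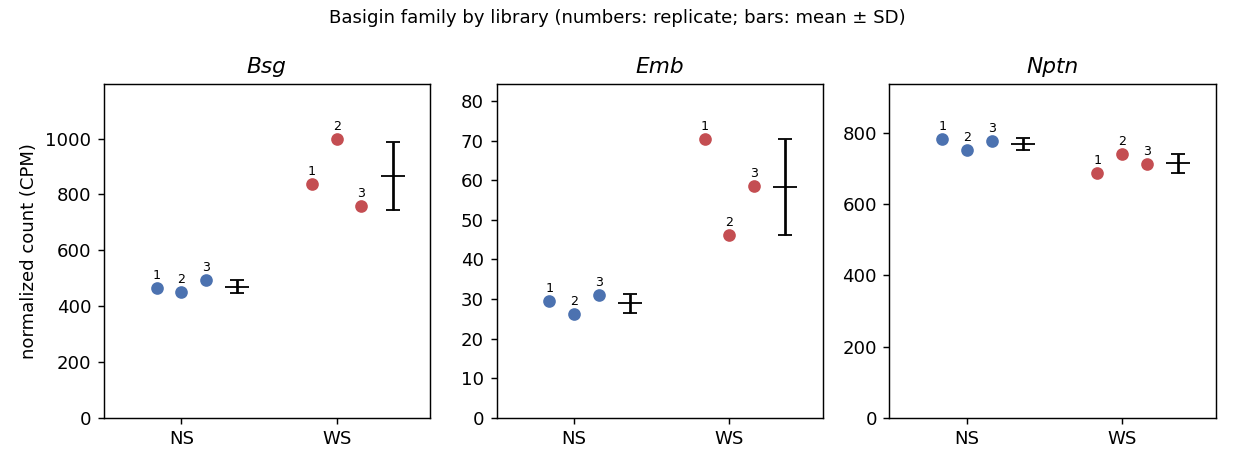
Normalized counts (CPM, vertical axis from 0) of Bsg, Emb and Nptn in the 3 NS (blue) and 3 WS (red) libraries, numbered by replicate, with the mean ± SD in black. All WS points of Bsg and Emb lie above all NS points, and the WS points of Nptn lie slightly below the NS points.

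The WS libraries were further apart than the NS libraries for each member. The coefficient of variation was 4.84% in NS and 14.05% in WS for Bsg, 8.53% and 20.8% for Emb, and 2.15% and 3.71% for Nptn. Whole libraries differed in the same way, so the wider spread in WS was not particular to the members. Chi-square per degree of freedom was 6.203, 6.44 and 6.765 for the pairs of NS libraries. For the pairs of WS libraries it was 9.004, 11.17 and 21.47. The order of the WS libraries also differed between members. Bsg was highest in WS replicate 2 and lowest in replicate 3, while Emb was highest in replicate 1 and lowest in replicate 2. These orders rest on 3 libraries and were not tested.

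The members were then set against each other within each library, since a ratio of counts from the same library does not depend on its scaling. The ratio of Bsg to Nptn counts was 0.594, 0.599 and 0.637 in NS and 1.22, 1.34 and 1.06 in WS. Bsg therefore had fewer counts than Nptn in each NS library and more in each WS library, and the mean log2 ratio rose by 0.98 (exact two-sided permutation test without pairing, p = 0.1, the smallest p that 3 against 3 unpaired libraries allow, and 0.2 after adjustment over 6 ratios). The ratio of Emb to Nptn was 0.0378, 0.0348 and 0.0398 in NS and 0.102, 0.0622 and 0.082 in WS, a rise of 1.10 on the log2 scale (exact permutation p = 0.1, adjusted 0.2). The ratio of Emb to Bsg was 0.0637, 0.0581 and 0.0626 in NS and 0.084, 0.0463 and 0.0771 in WS. Here the WS libraries lay on both sides of the NS libraries, and the difference of 0.12 on the log2 scale was small against the SD of 0.465 among WS libraries (exact permutation p = 0.8, adjusted 0.8).

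To compare levels between genes, CPM were divided by the length of the longest CCDS transcript (the consensus coding set), which is 1.526 kb for Bsg, 2.923 kb for Emb and 2.024 kb for Nptn. On this scale NS cortex held 308 ± 14.9 CPM per kb of Bsg, 9.88 ± 0.843 of Emb and 381 ± 8.2 of Nptn, and WS cortex held 567 ± 79.6, 19.96 ± 4.15 and 353 ± 13.1. Nptn and Bsg were thus among the most abundant transcripts of NS cortex, at ranks 107 and 143 of 13609 genes with such a length, whereas Emb sat near the middle at rank 6137. The order of Bsg and Nptn in NS depended on the length used. With the union of all annotated exons, which is 1.814 kb for Bsg and 6.168 kb for Nptn, NS levels were 259 and 125 CPM per kb, and Bsg came first in both groups. The low place of Emb held with both lengths, at 4.18 CPM per kb in NS with its exon union of 6.906 kb.

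As a share of the summed CPM per kb of the family, Bsg took 43.4%, 43.7% and 45.1% of it in NS, but 60.1%, 63.1% and 57.2% in WS. Since the shares of a library sum to the whole, that of Nptn was lower in WS, at 37.7% ± 2.6 against 54.5% ± 0.95, without a call for Nptn itself, and that of Emb was 1.41% ± 0.0779 in NS and 2.15% ± 0.57 in WS. The shares are not independent of each other and are given as a description. The summed level was 675 to 719 CPM per kb in NS and 870 to 1036 CPM per kb in WS. With exon-union lengths the shares of Bsg were 66.7% ± 0.806 and 79.2% ± 2.06, and the shares of Emb overlapped between groups.

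**Figure D2:**
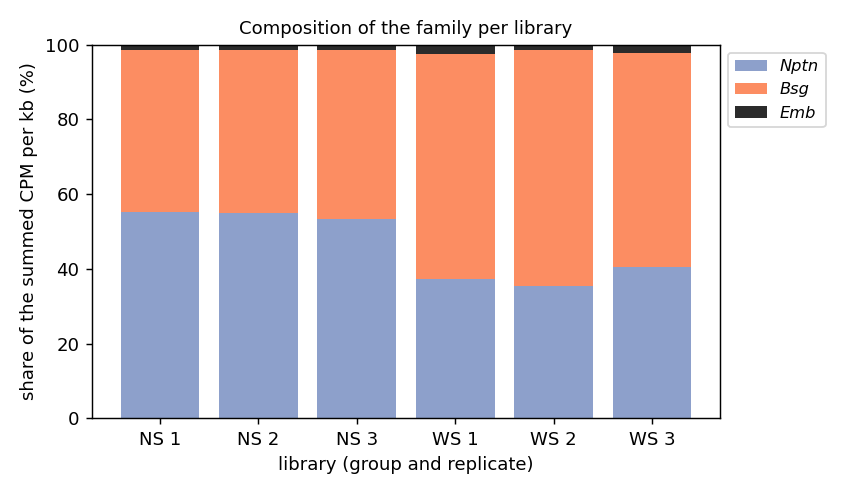
Stacked bars of the percentage that Nptn, Bsg and Emb take of the summed CPM per kb (longest CCDS transcript) in each library. Nptn is the larger part in the 3 NS libraries, Bsg is the larger part in the 3 WS libraries, and Emb is a thin band at the top.

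Among the transporters that basigin and embigin accompany, 2 of 6 were called higher and 0 lower, against 0.0364% and 0% of all tested genes. This list was chosen with earlier results of these data known. The median log2 fold change was 0.65 against 0.01 over all tested genes. No client lay near that median, which falls between 0.15 for Slc16a3 and 1.14 for Slc16a1. Slc16a1 (MCT1), the main client of basigin, had 43.2, 43.4 and 44.5 CPM in NS and 110, 100 and 79.6 CPM in WS. The NS libraries were nearly identical and all WS libraries were higher, with a log2 fold change of 1.14 ± 0.11 (SE; edgeR, adjusted p = 0.00356). Slc16a7 (MCT2), the client of embigin, had 55.2, 46.1 and 54.4 CPM in NS and 97.5, 149 and 182 CPM in WS, a log2 fold change of 1.46 ± 0.18 (SE; edgeR, adjusted p = 0.0142). Neither call was kept when NS replicate 2 was left out (adjusted p of 0.0851 for Slc16a1 and 0.314 for Slc16a7) or NS replicate 3 (0.0636 and 0.135), and that of Slc16a7 was also lost without NS replicate 1 (0.0703).

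The other clients were not called. Slc16a8 (MCT3), a transporter known from the choroid plexus and the retinal pigment epithelium, was near the detection limit, with 11, 6 and 12 counts in NS and 23, 25 and 44 counts in WS. No WS count fell within the NS range, and the log2 fold change was 1.63 ± 0.38 (SE; edgeR, adjusted p = 1.0), but it was called when replicates were blocked (adjusted p = 0.0442), so that 3 of the 6 clients were called in that fit. Slc16a3 (MCT4), the glycolytic export transporter of the group, had 6.40 ± 1.04 CPM in NS against 7.09 ± 1.38 in WS. Slc16a11, a hepatic pyruvate transporter linked to basigin, had 8.94 ± 1.12 and 9.34 ± 0.934 CPM. Slc16a12, a creatine transporter, had 2.94 ± 0.119 and 2.91 ± 0.48 CPM. The groups overlapped for these 3 genes.

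The ratio of basigin to its client was lower in WS. Bsg had 10.8, 10.4 and 11.1 counts for each Slc16a1 count in NS and 7.61, 9.97 and 9.53 in WS, with each WS library below each NS library and a mean log2 difference of -0.26 (exact permutation p = 0.1, the smallest possible, adjusted 0.2), which was -0.14 without WS replicate 1. Emb had 0.536, 0.568 and 0.569 counts for each Slc16a7 count in NS and 0.722, 0.311 and 0.321 in WS. WS replicate 1 lay above the NS range and the others below it, so the mean difference of -0.42 on the log2 scale was not a shift shared by the group (exact permutation p = 0.4, adjusted 0.6). Nptn had 1.42, 1.28 and 1.43 counts for each Atp2b1 count in NS and 1.44, 1.38 and 1.24 in WS, which overlapped (difference of -0.02, exact permutation p = 0.7, adjusted 0.8).

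**Figure D3:**
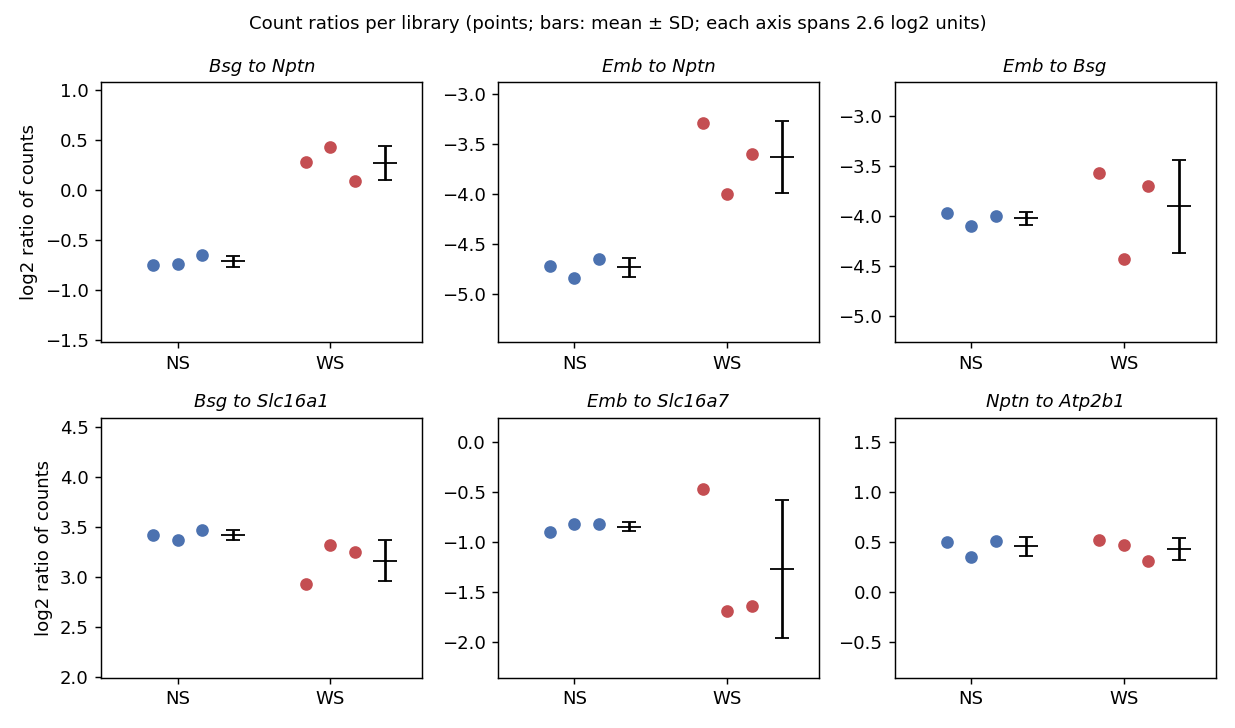
The log2 ratio of counts of 1 gene to another in each NS (blue) and WS (red) library, with mean ± SD in black, for 3 pairs of members and 3 pairs of a member and its client. Every panel spans the same number of log2 units. The WS points stand apart from the NS points for Bsg to Nptn, Emb to Nptn and Bsg to Slc16a1.

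The calcium pumps that neuroplastin accompanies did not yield a call, with 0 of 4 higher and 0 lower and a median log2 fold change of -0.06. Atp2b1, the widely expressed pump, had 561 ± 23.7 CPM in NS against 531 ± 48.5 CPM in WS. Atp2b2, a pump of high activity in neurons, had 915 ± 60.6 and 971 ± 62.6 CPM. Atp2b3 had 146 ± 4.7 and 142 ± 10.1 CPM, and Atp2b4 had 274 ± 24.4 and 256 ± 14.6 CPM. The groups overlapped for all 4 pumps, and their log2 fold changes lay between -0.10 and 0.08.

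**Figure D4:**
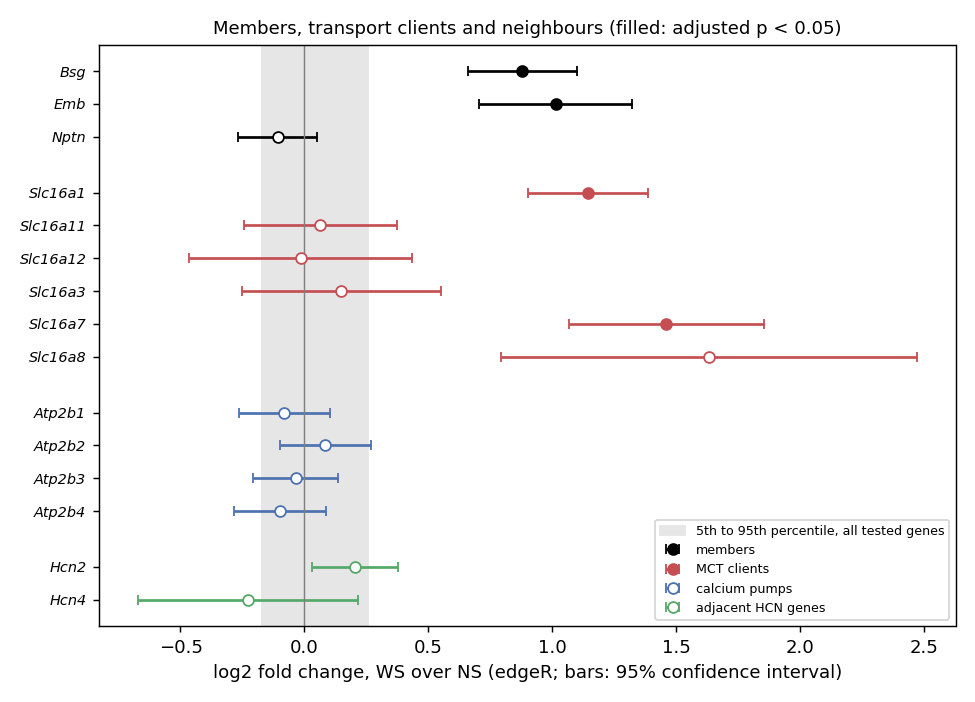
The log2 fold change of WS over NS (edgeR, horizontal axis, with 95% confidence intervals) for the members, the transporters carried by basigin or embigin, the calcium pumps and the HCN genes that lie next to Bsg and Nptn. Filled points passed an adjusted p of 0.05. The grey band is the 5th to 95th percentile of all tested genes, -0.17 to 0.26. Bsg, Emb, Slc16a1, Slc16a7 and the uncalled Slc16a8 lie to its right, Hcn4 lies to its left, and the other points lie inside it.

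Other genes tied to basigin were not called. Of 11 surface and ligand partners, which include the cyclophilin ligand Ppia, the amino acid transporter subunits Slc3a2 and Slc7a5 and the integrin subunits Itga3, Itga6 and Itgb1, 0 were called in either direction, and the median log2 fold change was 0.08. The largest values were 0.27 ± 0.21 (SE) for the scramblase Xkr8, from a level of 3.09 CPM in NS, and 0.16 ± 0.12 for Itga6. Basigin is also known as an inducer of matrix metalloproteinases. Of 6 such proteases, Mmp3 was not among the listed genes and 0 of the other 5 were called, with log2 fold changes of -0.20 ± 0.28 (SE) for Mmp9 and 0.10 ± 0.10 for Mmp15. Of 6 subunits of gamma-secretase, the membrane protease with which basigin has been found, 0 were called and the median was -0.02. Its subunit Aph1b had 27.0 ± 0.838 CPM in NS and 23.5 ± 2.1 CPM in WS, with no overlap (log2 fold change of -0.20 ± 0.10, SE), and Psen2 gave -0.07 ± 0.18.

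The synaptic partners of neuroplastin were likewise not called, with 0 of 7 in either direction and a median log2 fold change of -0.03. The AMPA receptor subunit Gria2 had 435 CPM in NS and 406 CPM in WS, with a log2 fold change of -0.10 ± 0.09 (SE). In these 4 groups of partners and the calcium pumps, no gene had an unadjusted p under 0.05 by edgeR, and DESeq2 called none.

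Genes were ranked by how closely their levels followed each member over the 6 libraries, as the root mean square distance between log2 CPM profiles after each gene's NS mean was subtracted, among the 10875 genes that averaged 100 counts or more. The closest gene to Bsg was Slc16a1 (distance 0.22), followed by the semaphorin Sema6a (0.26), Emb (0.29), the endothelial adhesion gene Pecam1 (0.31) and Grk1 (0.33). The closest to Emb was also Slc16a1 (0.23), followed by Bsg (0.29), the immediate early gene Fos (0.35), Pecam1 (0.41) and the immediate early gene Egr4 (0.41). The median distance over all compared genes was 0.64 for Bsg and 0.74 for Emb. Slc16a7 stood at position 236 for Bsg and 17 for Emb. Nptn was close to many genes, since few changed, with a median distance of 0.14, and its nearest were Sec61a2, Tsg101, Armcx1, Nsun2 and Tmem9b (0.01 to 0.02). Bsg and Emb were at positions 10850 and 10854 in its list. These distances describe 6 libraries and share their group difference, and no test was made of them.

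**Figure D5:**
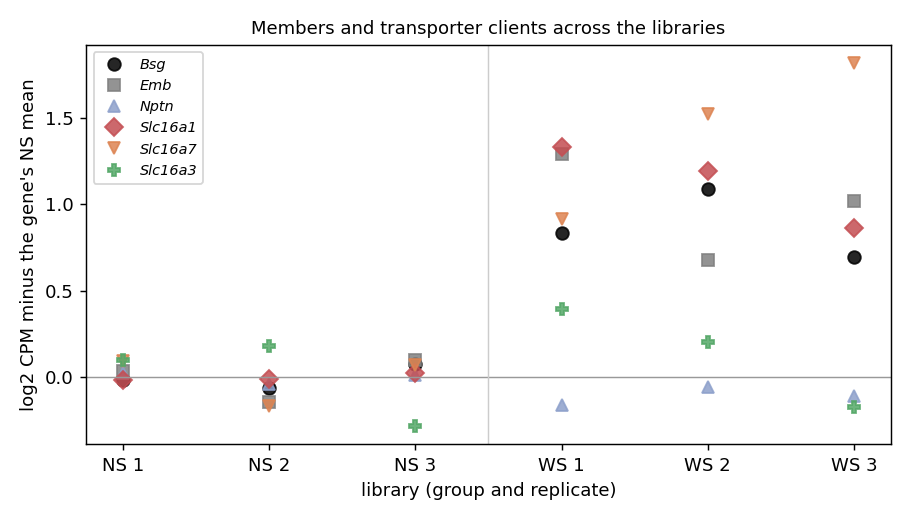
Log2 CPM of 6 genes in each library after subtraction of the gene's own NS mean (vertical axis), by library (horizontal axis). In the WS libraries Bsg, Emb, Slc16a1 and Slc16a7 lie above 0 with a different order in each library, Nptn lies slightly below 0, and Slc16a3 lies on both sides of it.

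The labels describe the tissue as a mixture of neurons, astrocytes, endothelial cells, oligodendrocytes, pericytes and microglia, and markers of all of these were detected with counts above 0 in each library. None of 14 endothelial markers was called by edgeR in the reported fit, all 14 had a log2 fold change above 0, and the median was 0.08. Their summed level was 338 to 382 CPM in NS and 374 to 440 CPM in WS. Pecam1 had the largest value, with 17.2, 16.3 and 19.2 CPM in NS and 22.2, 33.0 and 41.5 CPM in WS (log2 fold change of 0.87 ± 0.18, SE; edgeR, adjusted p = 0.813). It was called by DESeq2 (adjusted p = 0.00224) and by edgeR when replicates were blocked (adjusted p = 9.475e-04) or WS replicate 1 was left out (adjusted p = 0.00542). Among 10 pericyte markers 8 were above 0, with a median of 0.11 and sums of 286 to 290 CPM in NS and 293 to 340 CPM in WS, which did not overlap. Among 8 microglia markers 7 were above 0, with a median of 0.10 and sums of 453 to 474 and 479 to 491 CPM, which did not overlap either. Taken singly, 1 of the 10 pericyte and 0 of the 8 microglia markers had each WS library above each NS library. Of all tested genes, 3.11% did. All 10 astrocyte markers (median 0.13, sums of 4587 to 5100 and 4810 to 5935 CPM) and all 8 oligodendrocyte markers (median 0.19, sums of 8177 to 11757 and 9717 to 13001 CPM) were above 0, and 2 of 8 excitatory neuron markers were, with a median of -0.02. None of these markers was called by edgeR in the reported fit, and Pecam1 and the oligodendrocyte gene Olig1 were the ones with an unadjusted p under 0.05. Their part in the values of Bsg and Emb was not tested.

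In the genome Bsg and Nptn each lie next to a gene for an HCN pacemaker channel on the same strand, with no protein-coding gene between them. Bsg (chr10:79704491-79711969) is followed by Hcn2 after 4664 bases, and Nptn (chr9:58582240-58657955) by Hcn4 after 165456 bases. Emb lies at chr13:117208536-117274415. Hcn2 had 214, 236 and 231 CPM in NS and 283, 252 and 250 CPM in WS. Its WS libraries all lay above the NS range, at a log2 fold change of 0.20 ± 0.08 (SE; edgeR, adjusted p = 1.0) against 0.88 for Bsg beside it. Hcn4 had 4.05 ± 0.707 CPM in NS and 3.45 ± 0.471 CPM in WS, with a log2 fold change of -0.23. Among the other neighbours, Parp8 next to Emb (23.7 ± 0.881 and 23.3 ± 2.52 CPM) and Cd276 next to Nptn (10.3 ± 1.55 and 10.5 ± 1.2 CPM) overlapped between groups, and Gzmm next to Bsg had at most 10 counts in any library. Exons of Nptn and Emb overlap those of a gene on the opposite strand, Rec114 and Gm17509. Strand was not given in the sources used here, but Rec114 had at most 8 counts in a library, and Gm17509 was not listed. The gene-level counts do not separate the 4, 2 and 6 protein-coding transcripts annotated for Bsg, Emb and Nptn.

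The bases before the transcription start are shown for Emb and Nptn, a member that rose and a member that was not called. They are the 250 bases before the RefSeq start (GRCm38.p6, plus strand), at chr13:117220323-117220572 for Emb and chr9:58581990-58582239 for Nptn, with capitals for the E-box CACGTG and the GC box GGGCGG on either strand. The Emb start lies within the GENCODE gene rather than at its outer end. RefSeq promoters were matched for 2 of the 3 members, Bsg being the one without.
Emb: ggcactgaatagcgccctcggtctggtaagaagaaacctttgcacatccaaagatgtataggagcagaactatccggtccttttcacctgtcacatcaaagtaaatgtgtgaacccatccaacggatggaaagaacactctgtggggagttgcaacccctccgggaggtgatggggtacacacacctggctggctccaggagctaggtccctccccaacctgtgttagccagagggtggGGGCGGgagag
Nptn: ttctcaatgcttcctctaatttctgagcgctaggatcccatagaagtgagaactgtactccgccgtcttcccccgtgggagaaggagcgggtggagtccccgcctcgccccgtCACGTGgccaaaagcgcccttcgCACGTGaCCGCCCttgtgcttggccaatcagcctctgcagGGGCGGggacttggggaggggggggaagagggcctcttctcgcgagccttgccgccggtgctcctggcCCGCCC
CACGTG matched 0 times in the Emb window, 2 times in that of Nptn and 1 time in that of Slc16a1, and 6.02% of 32851 promoter windows of this length held it. GGGCGG matched 1 time in Emb, 3 times in Nptn and 1 time in Slc16a1, and 32.7% of windows held it. The core ACGTG, which lies within CACGTG on both strands and so is counted 2 times for each E-box, matched 0 times in Emb, 4 times in Nptn and 2 times in Slc16a1 (16.6% of windows). TGACG, the core of the cyclic AMP response element, matched 0 times in Emb, 1 time in Nptn and 0 times in Slc16a1 (17.8% of windows), and the AP-1 form TGANTCA matched in none of these 3 (6.75% of windows). GC content was 54.8% for Emb and 65.2% for Nptn, against a median of 52.4% over all windows.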

How the data were processed

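Bulk RNA-seq libraries of S1 cortex, 3 NS and 3 WS, were sequenced by the authors on a DNBseq platform, with samples accepted at a low RNA integrity limit. Per the methods, rRNA reads and reads of low quality were filtered out and the rest were aligned with HISAT2 (build mm10 per the submitters' processing notes). The counting tool was not given in the sources used here. The deposited table holds the mean estimated count of each gene over the libraries, and its SD. It also holds a z-score (a score with no unit) per library, deposited by the authors as the distance from that mean in units of the SD. The design had assumed counts, so library counts were recovered as mean plus z-score times SD and rounded. For 13418 genes with a rounding uncertainty under 0.1 count, 91.0% of values were whole within 0.1, and for the members the uncertainty was at most 0.0217% of the mean. The authors' columns of fold change, p-value, −log10 p-value and FDR hold their own comparison and were not used. One WS column has an added letter in its name and was taken as WS replicate 3 because the deposited WS mean z-score includes it.

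Counts were tested with edgeR 4.0.16 (R 4.3.3, TMM, filterByExpr, quasi-likelihood F test, Benjamini-Hochberg over 13747 genes) without a block, and the call rule was an adjusted p under 0.05. DESeq2 1.42.0, limma 3.58.1 (voom), other normalizations and filters, a replicate block and each library left out in turn were alternatives. Ratios of counts (0.5 added for the test) were compared by exact unpaired permutation in SciPy 1.17.1 (Python 3.11.15). Same-numbered NS and WS libraries deviated together, weakly for replicate 3 (r = 0.342, 0.228 and 0.124 over 13747 genes). Differently numbered libraries gave r of -0.26 to 0.04 in a like check over 13717 genes. The replicate numbers, which come from the sample labels, were therefore used as a block in an alternative fit. Whether they mark 1 animal is not known. The reported fit and the permutation tests were unpaired, and blocked values stand beside results that they change. No pair of libraries was a duplicate (lowest chi-square per degree of freedom 4.49). Gene models were from GENCODE M21 on GRCm38, matched for 14788 genes (99.8%). The fit was tested on simulated counts. The members and gene lists were chosen with earlier results of these data known. Named genes were the members, all transporter clients and calcium pumps, in each other list those called, those with no overlap between groups at 10 or more counts and a log2 fold change above 0.3 in size, or else the 2 largest, and the 5 genes nearest to each member in profile. Partners and neighbouring genes were also named for their roles or positions. Some genes that these rules name are not reported here.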

Additional observations from a re-analysis of the deposited data

How the results depend on the processing

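Bsg and Emb were higher in WS under all 14 alternatives and were called under 11 of them, and Nptn was called under none, with log2 fold changes of -0.14 to -0.08. The exceptions were the fits without an NS library. Over the fits that leave out a library, Bsg took log2 fold changes of 0.76 to 0.97 and Emb of 0.86 to 1.15. The number of genes called was 5 in the reported fit, 8 with DESeq2, 11 with the replicate block, and 0 to 9 with a library left out (3 without NS replicate 1, 0 without NS replicates 2 or 3, and 9 without WS replicate 1), and the cause was not tested. At an unadjusted p under 0.05, 119 genes were higher and 45 lower in the reported fit, 90 and 22 without NS replicate 1, 160 and 51 without NS replicate 2, 125 and 65 without NS replicate 3, 315 and 114 without WS replicate 1, 120 and 85 without WS replicate 2, and 319 and 291 without WS replicate 3. The 5 genes were among those called by DESeq2 and with the block. With the study's limit of a log2 fold change above 1 added to the edgeR fit, 4 genes were called, and 6 with the block, a combination chosen after seeing the data. The replicate block changed the calls given in the report and no other call of a member,, and for a ratio the mean of same-numbered differences equals the unblocked difference by construction. With a library left out, 4 of the 6 ratios kept their direction, although Bsg to Slc16a1 was -0.14 without WS replicate 1 and Emb to Slc16a7 ranged from -0.82 to -0.21. Emb to Bsg ranged from -0.04 (without WS replicate 1) to 0.39, and Nptn to Atp2b1 from -0.08 to 0.04. The median of the transporter clients ranged from 0.58 to 0.77, and that of the basigin surface and ligand partners stayed between 0.07 and 0.09. The medians near 0 of the calcium pumps, metalloproteinases, gamma-secretase subunits and synaptic partners took either sign. With 3 libraries in each group, an exact permutation test without pairing cannot go below 0.1.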

Other observations

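The wider immunoglobulin superfamily was described by 20 other adhesion genes of neurons and glia, among them Ncam1, L1cam and the contactins. None was called by edgeR in either direction, none had an unadjusted p under 0.05, DESeq2 called none, 8 had a log2 fold change above 0 and 12 below, and the median was -0.03. The largest values were 0.19 ± 0.10 (SE) for Cntn2, an adhesion protein of axons and myelinating glia, which had 120 CPM in NS and 137 CPM in WS, and -0.17 ± 0.09 for Negr1, which had 278 and 247 CPM.

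Markers of choroid plexus and of red blood cells varied among the libraries of both groups. The summed level of 9 choroid plexus markers was 495 to 888 CPM in NS and 304 to 1012 CPM in WS, and Ttr was not among the listed genes. The log2 fold change was 0.76 ± 0.59 (SE) for Otx2 and -0.31 ± 0.64 for Folr1. The lowest and the highest sums were both in WS libraries. Hemoglobin and other red blood cell genes had 422 to 766 CPM in NS and 501 to 634 CPM in WS. Their median log2 fold change was 0.03.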
